A study of Mus musculus with 6 samples.

Results

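The collagens described here are the type VI chains encoded by *Col6a1*, *Col6a2*, *Col6a3*, *Col6a5* and *Col6a6*, the type VIII chains encoded by *Col8a1* and *Col8a2*, and the fibril-associated chains encoded by *Col12a1*, *Col14a1* and *Col16a1*. These 10 genes were listed by family and symbol among the 47069 genes of the deposited count tables, and all 10 were found. The rule uses no measured value, but the list was made with earlier results of these data known. It does not hold every chain of these families, and 8 other FACIT, type VI and type VIII-like chains are given below. RNA was sequenced from the inguinal subcutaneous white adipose tissue (SC-WAT) of 3 *Egr1*+/+ and 3 *Egr1*-/- female C57BL/6 mice aged 2 weeks, with 1 library per mouse and no treatment in either group. *Egr1*, which encodes a zinc finger transcription factor, was inactivated in the germline by a *LacZ* insertion together with a frameshift, so that the mutation was present in all tissues and no cell type was targeted. The mice came from several litters of heterozygous crosses, and a pair of littermates, one of each genotype, was included without being named. The comparison asked how the mRNA of these collagens differed between SC-WAT without and with *Egr1*.

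Type VI collagen forms beaded microfilaments around adipocytes and other cells. Its core trimer holds an alpha1, an alpha2 and an alpha3 chain, the last of which can be replaced by related long chains such as alpha5 and alpha6, and a cleaved end of alpha3, endotrophin, is known as a signal in adipose tissue. Types XII and XIV are FACITs, fibril-associated collagens with interrupted triple helices, which sit on the surface of type I collagen fibrils as homotrimers, and type XVI is a related chain. Type VIII is a short network-forming collagen of vessel walls and of the membrane beneath the corneal endothelium.

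The libraries held between 29661984 and 42357981 counts on genes, of which mitochondrial genes took 50.0% to 66.3%, with the highest share in *Egr1*-/- replicate 1. Levels are given as CPM, the usual per-library scaling of counts, with library sizes normalized by the TMM method, and levels of different genes are compared only as CPM per kb of exon. *Egr1* itself lay between 8.02 and 16.5 CPM in the *Egr1*+/+ mice, and between 1.84 and 3.09 CPM in the *Egr1*-/- mice, so its level went with the labels in all 6 libraries. Adipocyte markers were present in every library, with a summed level of 8 markers between 5464 and 7789 CPM.

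The promoters of 4 genes are shown because they belong to the core type VI trio, whose levels put the mice of each genotype in the same order, and to the single collagen of the group whose promoter holds a match to the EGR1 motif. They come from RefSeq on build GRCm38.p6, which held 9 promoter windows for 8 of the 10 genes and none for *Col12a1* and *Col14a1*. Each is printed 5′ to 3′ on the strand of the gene, from 250 bases before to 50 bases after the annotated start, in lower case, with capitals for a match to the motif GCGNGGGCG or, on the other strand, CGCCCNCGC. The windows are *Col6a1* at chr10:76725995-76726294 (minus strand), *Col6a2* at chr10:76623581-76623880 (minus strand), *Col6a3* at chr1:90843922-90844221 (minus strand) and *Col8a1* at chr16:57754688-57754987 (minus strand).
Col6a1: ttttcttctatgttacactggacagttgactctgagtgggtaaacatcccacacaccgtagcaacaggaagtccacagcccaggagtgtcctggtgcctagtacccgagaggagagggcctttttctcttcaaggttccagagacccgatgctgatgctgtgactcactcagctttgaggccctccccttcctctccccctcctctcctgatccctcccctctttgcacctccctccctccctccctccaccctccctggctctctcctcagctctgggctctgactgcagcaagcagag
Col6a2: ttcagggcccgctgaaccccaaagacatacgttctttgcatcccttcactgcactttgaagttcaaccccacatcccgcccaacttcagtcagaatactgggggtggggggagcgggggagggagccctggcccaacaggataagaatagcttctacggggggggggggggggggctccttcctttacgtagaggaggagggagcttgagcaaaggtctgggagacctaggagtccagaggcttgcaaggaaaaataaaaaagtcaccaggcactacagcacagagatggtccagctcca
Col6a3: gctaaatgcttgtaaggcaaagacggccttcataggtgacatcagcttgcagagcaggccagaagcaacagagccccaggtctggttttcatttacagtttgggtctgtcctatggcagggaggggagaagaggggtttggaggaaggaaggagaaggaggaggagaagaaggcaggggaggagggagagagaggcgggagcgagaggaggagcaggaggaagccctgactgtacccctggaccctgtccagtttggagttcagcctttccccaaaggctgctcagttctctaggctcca
Col8a1: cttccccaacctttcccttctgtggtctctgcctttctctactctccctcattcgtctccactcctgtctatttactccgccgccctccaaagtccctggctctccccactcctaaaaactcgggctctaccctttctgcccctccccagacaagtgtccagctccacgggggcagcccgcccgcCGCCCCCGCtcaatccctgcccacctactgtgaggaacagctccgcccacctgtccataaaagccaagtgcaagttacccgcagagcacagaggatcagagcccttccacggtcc

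The motif was found once in the 9 windows, in the *Col8a1* promoter, as CGCCCCCGC starting 65 bases before the annotated start. Among all 32851 promoter windows of this length, 5.55% held at least 1 match on either strand. The windows of *Col6a1*, *Col6a2*, *Col6a3*, *Col6a5*, *Col6a6*, *Col8a2* and *Col16a1* held none, which says only that these letters are not within them. A second *Col6a2* window also lacked a match.

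*Col6a1* and *Col6a2* lie close together on chromosome 10 of GRCm38, both on the minus strand. *Col6a1* runs from 76708792 to 76726168 and *Col6a2* from 76595762 to 76623630. *Col6a5* (chromosome 9, 105856078 to 105960643) and *Col6a6* (chromosome 9, 105687809 to 105828160) also lie close together, while *Col6a3* lies on chromosome 1 (90765923 to 90843971). *Col14a1* spans 55307750 to 55520803 of chromosome 15, *Col12a1* spans 79598991 to 79718831 of chromosome 9 and *Col16a1* spans 130047840 to 130099283 of chromosome 4. *Col8a1* lies on chromosome 16 (57624258 to 57754737) and *Col8a2* on chromosome 4 (126286793 to 126314330). No exon of the 10 genes overlapped an annotated exon of another gene, apart from 63 bases of *Col6a6* shared with a predicted transcript on the opposite strand that held at most 1 count per mouse.

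In *Egr1*-/- SC-WAT the fibril-associated *Col14a1* and the 5 type VI genes of the group had lower mean mRNA levels than in *Egr1*+/+ SC-WAT. The level was 59.2% of the *Egr1*+/+ mean for *Col14a1* and 72.8% to 79.4% for the core trio *Col6a1*, *Col6a2* and *Col6a3*. *Col12a1*, the closest relative of *Col14a1* in the group, stood at 102% of its *Egr1*+/+ mean. Of the 10 genes, 9 had enough counts for a test and *Col8a2* did not. A lower estimate in *Egr1*-/- mice was found for 8 of the 9, and for 49.9% of all genes tested. The median log2 fold change of the 9 was -0.42, against 0.001 over all 17667 genes tested. No collagen of the group passed the adjusted threshold of 0.05 after Benjamini-Hochberg adjustment of edgeR's quasi-likelihood p-values over all genes, where 3 genes in all did, or 0.017%. These 3 genes were higher in *Egr1*-/- mice, and 0 of all genes passed as lower. *Egr1* itself did not pass, with an edgeR adjusted p of 0.088. At an unadjusted p under 0.05, 6 of the 9 were lower and 0 higher, while 5.6% of all genes tested were lower by the same rule. In DESeq2, 1 of the 9 passed after adjustment, *Col14a1*, where 1.6% of the genes with an adjusted p were called lower. In limma-voom 0 of the 9 passed, where 1 of 17667 genes did. There, 5 of the 9 were lower at an unadjusted p under 0.05, as were 5.7% of all genes tested. In 6 of the 9, every *Egr1*-/- mouse was below every *Egr1*+/+ mouse, which held for 8.1% of all genes tested. With 3 mice against 3, an exact two-sided permutation test of a single gene cannot give a p below 0.1.

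**Figure D1:**
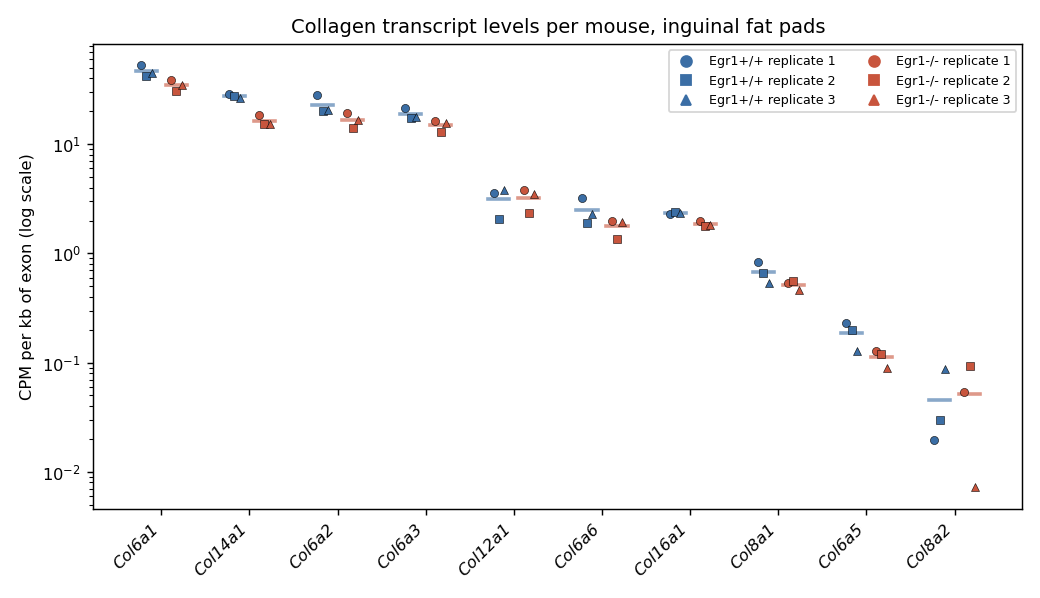
Levels of the 10 collagen genes in each mouse, in CPM per kb of exon on a log axis, for 3 Egr1+/+ mice (blue) and 3 Egr1-/- mice (red); symbols mark the replicate and horizontal lines the group means. Col6a1, Col14a1, Col6a2 and Col6a3 form the upper tier, and the red points of Col14a1 lie clear below the blue ones while those of Col12a1 overlap them.

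Per length of exon, the 10 genes spanned a wide range. In *Egr1*+/+ mice *Col6a1* came first with 46.9 ± 5.44 CPM per kb (SD, n = 3). It was followed by *Col14a1* with 27.6 ± 1.19, *Col6a2* with 22.9 ± 4.42 and *Col6a3* with 18.8 ± 2.15 CPM per kb (SD, n = 3 each), of which neighbours in this order overlapped between mice. A middle tier of *Col12a1*, *Col6a6* and *Col16a1*, with means between 2.36 and 3.15 CPM per kb, overlapped within itself and did not overlap the upper tier. *Col8a1* (0.676 ± 0.149 CPM per kb), *Col6a5* (0.185 ± 0.0516 CPM per kb) and *Col8a2* (0.0457 ± 0.0369 CPM per kb, SD and n = 3 for each) came last, each apart from the next. In *Egr1*-/- mice *Col14a1*, at 16.4 ± 1.73 CPM per kb (SD, n = 3), stood behind *Col6a2* at 16.7 ± 2.64 CPM per kb (SD, n = 3), with overlapping mice. The place of *Col6a2* depends on the length taken for it, since its annotated exons cover 8326 bases together and its longest transcript 4912 bases. With the longest transcript, *Col6a2* reached 38.8 ± 7.49 CPM per kb in *Egr1*+/+ mice (SD, n = 3) and stood above *Col14a1* at 30.0 ± 1.29 CPM per kb (SD, n = 3).

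*Col14a1* encodes the type XIV chain, which binds decorin on type I fibrils. Its levels were 201, 195.5 and 185 CPM in *Egr1*+/+ replicates 1 to 3, against 129, 107 and 108 CPM in *Egr1*-/- replicates 1 to 3. The genotypes did not overlap, and the gap between the lowest *Egr1*+/+ mouse and the highest *Egr1*-/- mouse was wider than the spread within either genotype. The log2 fold change of *Col14a1* was -0.76 (standard error 0.122, 95% interval -1.03 to -0.48), and edgeR's p was 0.000157 before and 0.146 after adjustment. DESeq2 gave an adjusted p of 1.39e-05, and edgeR without the filter on low counts 0.000659. With each mouse left out in turn the estimate stayed between -0.84 and -0.71 and its unadjusted p was at most 0.00113, so it was below 0.05 in all 6 fits. The study had named *Col14a1* from the same mice, so its direction is no independent evidence. By RT-qPCR, the study also reported lower *Col14a1* in SC-WAT at this age and in adult mice.

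*Col12a1* encodes the type XII chain, known from tendon and fascia, and its groups overlapped. It had 54.1, 31.4 and 58.3 CPM in *Egr1*+/+ replicates 1 to 3, against 57.7, 35.6 and 53.4 CPM in *Egr1*-/- replicates 1 to 3. Replicate 2 was the low mouse in both genotypes, and the ranges overlapped almost fully. The log2 fold change of *Col12a1* was 0.03 (standard error 0.247, adjusted p = 0.98 in edgeR), and its 95% interval from -0.53 to 0.59 covers sizes like that of *Col6a1* in both directions. Its sign turned with the mice left out, from -0.20 without *Egr1*+/+ replicate 2 to 0.22 without *Egr1*-/- replicate 2, and to -0.16 with libraries scaled by total counts.

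The ratio of *Col14a1* to *Col12a1* within each mouse was looked at after these values were seen. On the log2 scale of levels per kb it was 3.01, 3.76 and 2.78 in the *Egr1*+/+ mice, against 2.28, 2.71 and 2.14 in the *Egr1*-/- mice. The highest *Egr1*-/- mouse thus lay just under the lowest *Egr1*+/+ mouse, and the means differed by -0.81. Since library size cancels in this ratio, it does not depend on how libraries are scaled, and it is a description with no test.

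*Col16a1*, the chain related to the FACITs, was less abundant than *Col14a1* per kb and had the smallest SD relative to its mean within each genotype. Its levels were 15.5, 16.3 and 15.9 CPM in the *Egr1*+/+ mice, against 13.3, 12.1 and 12.2 CPM in the *Egr1*-/- mice, with no overlap. The log2 fold change of *Col16a1* was -0.34 (standard error 0.111, unadjusted p = 0.0124, edgeR adjusted p = 0.314), and with each mouse left out it ran from -0.39 to -0.31 with unadjusted p-values of at most 0.0492. DESeq2 gave it an adjusted p of 0.366. Together with *Col14a1* it stayed below an unadjusted p of 0.05 whichever mouse was dropped, which no other collagen of the group did. Without the filter on low counts, its unadjusted p was 0.0511.

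The 3 core type VI chains were lower in *Egr1*-/- mice by similar amounts. *Col6a1*, the alpha1 chain, had 232, 186 and 198.5 CPM in *Egr1*+/+ replicates 1 to 3, against 170.1, 136 and 154 CPM in *Egr1*-/- replicates 1 to 3. *Col6a2*, the alpha2 chain, had 233, 168.5 and 169.9 CPM in the *Egr1*+/+ mice, against 160.3, 116 and 139 CPM in the *Egr1*-/- mice. *Col6a3*, the long alpha3 chain that yields endotrophin, had 255, 209.9 and 211 CPM in the *Egr1*+/+ mice, against 196, 155 and 185 CPM in the *Egr1*-/- mice. None of the 3 overlapped between genotypes, and in each of them replicate 1 was the highest mouse of both genotypes and replicate 2 the lowest. The gaps were narrow next to the spread, because *Egr1*-/- replicate 1 came close to *Egr1*+/+ replicates 2 and 3.

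The log2 fold changes were -0.42 for *Col6a1* (standard error 0.138, 95% interval -0.74 to -0.11) and -0.46 for *Col6a2* (standard error 0.172, 95% interval -0.85 to -0.07). For *Col6a3* it was -0.33 (standard error 0.141, 95% interval -0.65 to -0.01). Adjusted p-values in edgeR were 0.319, 0.386 and 0.448, and in DESeq2 0.112, 0.158 and 0.31, in the same order. The unadjusted p-values were 0.0135, 0.0262 and 0.0422. Their places under 0.05 rested on single mice: without *Egr1*-/- replicate 2, none of the 3 was below 0.05, and without *Egr1*+/+ replicate 1, or without *Egr1*-/- replicate 3, *Col6a1* alone was. Without *Egr1*+/+ replicate 3, *Col6a3* was not. Of the 9 genes, 2 were lower at an unadjusted p under 0.05 without *Egr1*-/- replicate 2, and 3 without *Egr1*+/+ replicate 1 or *Egr1*-/- replicate 3, in place of 6. In the same fits, the share of all genes that was lower by this rule was 4.1%, 5.17% and 3.8%.

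**Figure D2:**
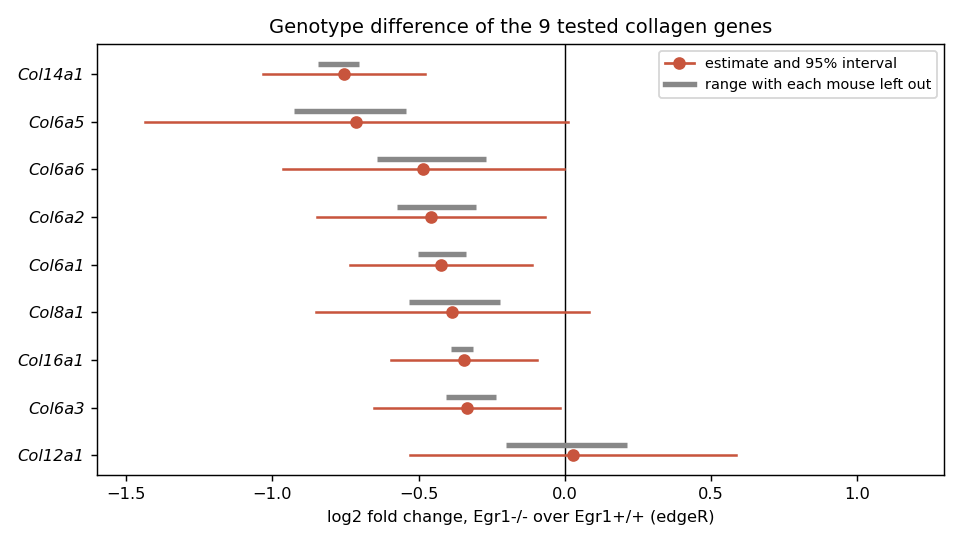
Log2 fold change of each tested collagen gene between Egr1-/- and Egr1+/+ mice from edgeR (points) with its 95% interval (red lines) and the range of estimates with each mouse left out in turn (grey bars). Col14a1 lies farthest from 0 at -0.76, while the estimate of Col12a1 is 0.03 and its bars reach to both sides of 0.

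*Col6a5* and *Col6a6* encode long chains that can take the place of alpha3 and are restricted to fewer tissues. *Col6a6* had 29.4, 17.3 and 21.2 CPM in the *Egr1*+/+ mice, against 18.3, 12.5 and 17.8 CPM in the *Egr1*-/- mice. The mice overlapped here, since *Egr1*+/+ replicate 2 was below 2 of the *Egr1*-/- mice. Its log2 fold change was -0.48 (standard error 0.213, edgeR adjusted p = 0.465, unadjusted p = 0.0488), and left-out mice moved it between -0.64 and -0.27. *Col6a5* was rare, with 74, 56 and 52 counts in the *Egr1*+/+ mice, against 40, 35 and 26 counts in the *Egr1*-/- mice. In CPM, the lowest *Egr1*+/+ mouse at 1.206 lay just above the highest *Egr1*-/- mouse at 1.201. The log2 fold change of *Col6a5* was -0.71 with a wide 95% interval from -1.43 to 0.01 (unadjusted p = 0.0528, edgeR adjusted p = 0.477), and DESeq2 gave it no adjusted p.

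Since the chains of type VI collagen assemble within a trimer, their transcripts were also compared within each mouse. The ratio of *Col6a1* to *Col6a2*, in levels per kb, was 1.89, 2.1 and 2.22 in the *Egr1*+/+ mice, against 2.02, 2.22 and 2.1 in the *Egr1*-/- mice. Mice of the genotypes overlapped, with a mean difference of 0.03 on the log2 scale (exact permutation test, two-sided p = 0.8, 0.9 after Benjamini-Hochberg adjustment over 3 ratios). The ratio of *Col6a3* to the geometric mean of the other chains was 0.554, 0.599 and 0.58 in the *Egr1*+/+ mice, against 0.6, 0.621 and 0.639 in the *Egr1*-/- mice. It was higher in each *Egr1*-/- mouse than in each *Egr1*+/+ mouse, by a mean of 0.10 on the log2 scale, with *Egr1*+/+ replicate 2 and *Egr1*-/- replicate 1 almost level (exact permutation test, p = 0.1 on both sides, which this design cannot go below, and 0.3 after adjustment). The levels of these ratios shift with the transcript length used, but the differences between mice do not. With the longest transcripts, the ratio of *Col6a1* to *Col6a2* lay between 1.19 and 1.4 over all mice, in place of 1.89 to 2.22. The ratio of *Col6a3* then lay between 0.487 and 0.562.

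The type VIII chains were scarce in this tissue. *Col8a1* had 6.52, 5.16 and 4.2 CPM in the *Egr1*+/+ mice, against 4.17, 4.39 and 3.59 CPM in the *Egr1*-/- mice. The ranges overlapped, and the log2 fold change of -0.38 (standard error 0.207, 95% interval -0.85 to 0.08) had an unadjusted p of 0.0959 and an edgeR adjusted p of 0.57. *Col8a2* had 3, 4 and 17 counts in the *Egr1*+/+ mice, against 8, 13 and 1 counts in the *Egr1*-/- mice, too few for a test, so that a difference was not detectable at this depth. The log2 ratio of *Col8a1* to *Col8a2* had an SD of 1.43 in *Egr1*+/+ and 1.79 in *Egr1*-/- mice, and its means differed by -0.20 (exact permutation test, two-sided p = 0.9, also 0.9 after adjustment).

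**Figure D3:**
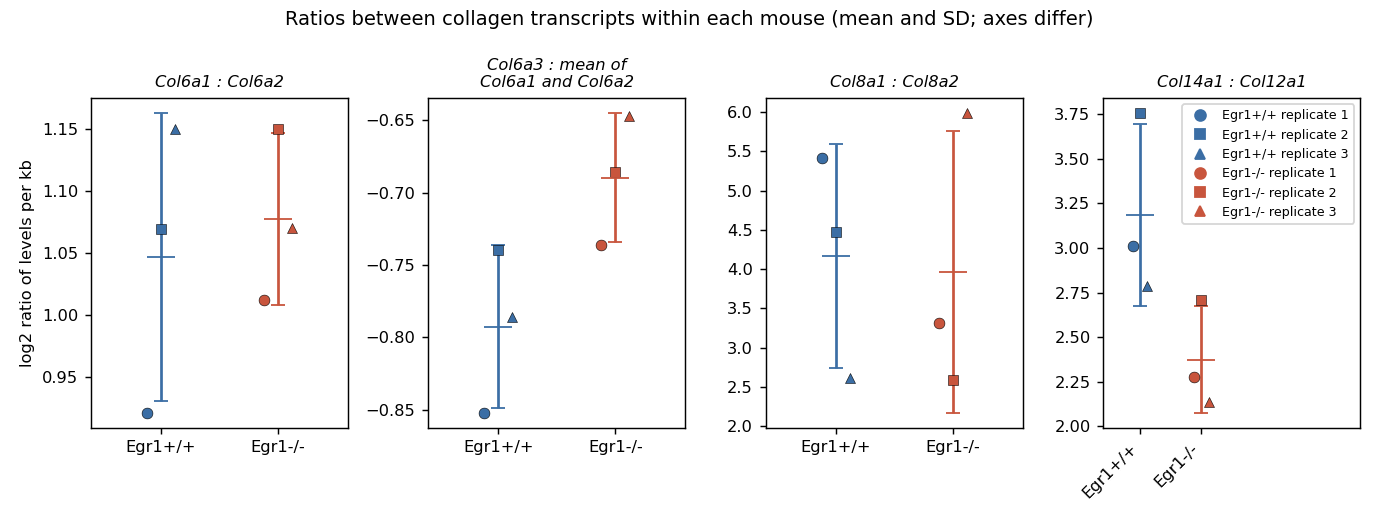
Log2 ratios of levels per kb between collagen transcripts within each of 3 Egr1+/+ (blue) and 3 Egr1-/- mice (red), with group means and SD; each panel has its own axis. The Col6a1 to Col6a2 and Col8a1 to Col8a2 ratios overlap between genotypes, while each Egr1-/- mouse lies above each Egr1+/+ mouse for Col6a3 against Col6a1 and Col6a2, and below for Col14a1 against Col12a1.

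As a share of all 44 annotated collagen genes, in summed CPM per kb, the 10 genes made up 14.6% ± 1.87 (SD, n = 3) in *Egr1*+/+ and 14.6% ± 0.33 (SD, n = 3) in *Egr1*-/- mice. The 5 type VI genes of the group held 9.19% to 12.4% of it in *Egr1*+/+ mice and 10.7% to 11.3% in *Egr1*-/- mice, which overlap. The 3 fibril-associated genes held 3.61% to 4.06% in *Egr1*+/+ mice and 3.37% to 3.59% in *Egr1*-/- mice, without overlap on this scale and with overlap in plain CPM. Among the other 34 collagen genes, 30 were tested, 20 had a lower and 10 a higher estimate, and their median log2 fold change was -0.23. Of these, 8 were lower at an unadjusted p under 0.05 and 0 higher, beside 5.6% of all genes tested that were lower.

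The families have further members. Of 8 other FACIT, type VI and type VIII-like chains, 5 were tested, with 2 lower and 3 higher estimates, a median of 0.23 and 0 below an unadjusted p of 0.05. Their summed level was 7.26 to 11.7 CPM over all mice, and the lowest p-values belonged to *Col9a3* (log2 fold change 0.80), *Col20a1* (0.32) and *Col19a1* (-0.57). A further type VI chain, *Col6a4*, had a higher estimate (0.23) with overlapping groups. Its mean was 4.05 CPM in *Egr1*+/+ and 4.74 CPM in *Egr1*-/- mice.

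The collagens of the fibrils on which FACITs sit were also measured. Of the 8 tested genes among fibril cores and FACIT ligands, 7 were lower at an unadjusted p under 0.05 and 0 higher, and the list's median was -0.59 on the log2 scale. Over all 17667 genes tested, 990 (5.6%) were lower by this rule, among 1884 past it in either direction. *Col5a2*, *Col1a1* and *Col1a2*, chains of types V and I collagen, had log2 fold changes of -0.67, -0.62 and -0.58 and adjusted p-values of 0.1895, 0.242 and 0.2455 in edgeR. The study had named these chains, and *Dcn*, from the same mice, so their direction is no independent evidence. By RT-qPCR, the study also reported lower *Col5a2*, *Col1a1* and *Dcn* in SC-WAT at this age and in adult mice. Among the 10 receptors and binding partners of type VI collagen, 6 were lower and 1 higher by the unadjusted rule, with a median of -0.38. *Dcn*, the fibril-bound proteoglycan decorin, had a log2 fold change of -0.88 and *Antxr1*, an anthrax toxin receptor that binds the endotrophin part of alpha3, one of -0.58. *Cspg4*, the NG2 proteoglycan receptor of type VI collagen on mural cells and progenitors, went the other way with 0.65, and its adjusted p of 0.227 in edgeR left it short of the threshold as well.

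At an unadjusted p under 0.05, where 5.6% of all genes tested were lower, 7 of the 15 genes for chain modification, assembly and secretion were lower and 0 higher. Their median was -0.35. The lowest p-values were those of *P4hb* (-0.47) and *P4ha1* (-0.41), subunits of prolyl 4-hydroxylase, and *Plod2* (-0.60), a lysyl hydroxylase. Of the 4 genes for cleavage and uptake of type VI collagen, 3 were lower by this rule and 0 higher, with a median of -0.49. These were *Mrc2*, an endocytic collagen receptor, at -0.55, the membrane protease *Mmp14* at -0.54 and *Bmp1* at -0.44, the last of which overlapped between genotypes. None of these partner genes passed the adjusted threshold in edgeR. DESeq2 called 4 of the fibril list, 2 of the receptor list, 1 of the modification list and 2 of the cleavage list lower. It called 1 receptor, *Cspg4*, higher. Of the 13039 genes with an adjusted p in DESeq2, 209 (1.6%) were called lower and 133 higher.

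**Figure D4:**
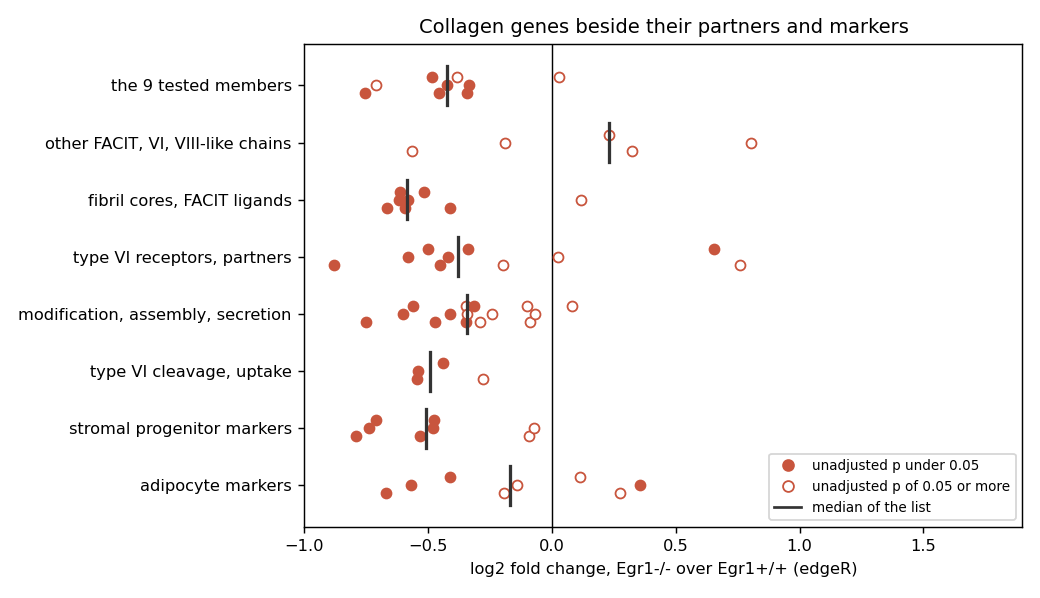
Log2 fold changes between Egr1-/- and Egr1+/+ mice from edgeR for the tested genes of each list (points; filled where the unadjusted p is under 0.05), with the list's median as a vertical line. The 9 tested members have a median of -0.42, between those of the fibril cores (-0.59) and of the adipocyte markers (-0.17), and the other FACIT, type VI and type VIII-like chains have a median of 0.23.

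Fibroblast-like stromal cells are known to make these collagens. All 8 markers of stromal progenitors had a lower estimate in *Egr1*-/- mice, as did 49.9% of all genes tested. At an unadjusted p under 0.05, 6 of the 8 were lower, beside 5.6% of all genes tested. The summed level of the 8 markers was 828 to 894 CPM in *Egr1*+/+ and 485 to 690 CPM in *Egr1*-/- mice. In whole tissue, fewer cells of a type and less RNA per cell cannot be told apart. Divided by this sum within each mouse, the 3 core type VI genes overlapped between genotypes, with mean log2 differences of 0.23 for *Col6a1*, 0.20 for *Col6a2* and 0.32 for *Col6a3*. *Col14a1* overlapped as well, with -0.11, and *Col12a1* was higher in each *Egr1*-/- mouse than in each *Egr1*+/+ mouse, with 0.70. This depended on the markers, since *Dpt* gave 412 CPM of the sum in *Egr1*+/+ and 247 CPM in *Egr1*-/- mice on average. Without it *Col14a1* was lower with no overlap (-0.21) and *Col12a1* overlapped (0.60). *Col16a1* was then higher with no overlap (0.21), with *Egr1*+/+ replicate 2 at -4.805 and *Egr1*-/- replicate 1 at -4.79 almost level. Relative to *Pdgfra* alone, the differences were 0.06 for *Col6a1*, 0.03 for *Col6a2*, 0.15 for *Col6a3*, -0.28 for *Col14a1* and 0.53 for *Col12a1*. Of these *Col12a1* alone did not overlap, with *Egr1*+/+ replicate 1 at -0.784 and *Egr1*-/- replicate 2 at -0.781 almost level. These ratios were chosen after the values were seen.

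Other markers were summed in the same way. Adipocyte markers were at 6790 to 7789 CPM in *Egr1*+/+ and 5464 to 6380 CPM in *Egr1*-/- mice, although 3 of the 8 markers had a higher estimate, among them *Lipe* (0.36 on the log2 scale). On average *Fabp4*, whose groups overlapped, gave 3928 CPM of this sum in *Egr1*+/+ and 3430 CPM in *Egr1*-/- mice. Of the 8 adipocyte markers, 2 were lower and 1 higher with no overlap. Thermogenic adipocyte markers were at 488 to 637 against 880 to 1476 CPM. Macrophage markers were at 279 to 363 against 212 to 249 CPM, and Schwann cell markers at 235 to 336 against 162 to 208 CPM, again without overlap. Endothelial, mural, lymphocyte, mammary epithelial and tendon markers overlapped between genotypes. Skeletal muscle markers ran from 191 to 3117 CPM in *Egr1*+/+ and from 88.0 to 2450 CPM in *Egr1*-/- mice. *Egr1*+/+ replicate 2 was the highest for them and the lowest *Egr1*+/+ mouse for *Col6a1*, *Col6a2*, *Col6a3*, *Col6a6* and *Col12a1*. Among *Egr1*-/- mice, replicate 3 was the highest for muscle markers. Replicate 2, at 312 CPM of muscle markers, was the lowest *Egr1*-/- mouse for the same collagens. The part of these cell types in the collagen values was not tested.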

How the data were processed

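Total RNA of inguinal fat pads from 3 mice per genotype underwent ribosomal RNA depletion before strand-specific library preparation. The authors mapped the reads to GRCm38 with TopHat2 and Bowtie2, counted them over GENCODE M8 genes by featureCounts and deposited the unnormalized counts. The strand and multimapping settings of the counting are not given in the sources used here. Genotypes and replicate numbers came from the sample titles.

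Genes were named by Ensembl identifier through GENCODE M21 of GRCm38, which matched 46488 of 47069 genes. Exon lengths came from M21 and may differ slightly from those of M8. Genotypes were compared by edgeR 4.0.16 under R 4.3.3 (TMM, filterByExpr, quasi-likelihood test, no covariate), with Benjamini-Hochberg adjustment over 17667 genes and a threshold of 0.05. Standard errors were derived from the fold change and its F statistic. DESeq2 1.42.0, limma 3.58.1, other normalizations and filters, a replicate block and leaving out each mouse were the alternatives. The fit was tested on simulated data. Replicate libraries of a genotype differed by more than sampling noise.

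The named genes are the 10 collagens, *Egr1*, and of each partner list the up to 3 tested genes with the lowest p. *Col6a4* and marker genes outside this rule, and ratios other than those between chains of a trimer, were chosen after their values were seen. The members and lists were chosen with earlier results of these data known. Correlations of same-numbered mice (-0.0888, 0.106 and -0.126 for replicates 1 to 3) did not pair them.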

Additional observations from a re-analysis of the deposited data

How the results depend on the processing

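The direction of 8 of the 9 tested collagen genes and their median held under the alternatives run, with medians from -0.58 to -0.30. *Col12a1* alone changed sign, to -0.162 with total counts, and to -0.20, -0.105 and -0.04 without *Egr1*+/+ replicate 2, *Egr1*-/- replicate 1 and *Egr1*-/- replicate 3, while it reached 0.215 without *Egr1*-/- replicate 2. Total counts moved the median of all genes from 0.001 to -0.15 and the share of genes with a lower estimate from 49.9% to 70.5%.

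Over all genes, the number past the adjusted threshold was 3, and it was 342 in DESeq2, 1 in limma-voom, 79 with total counts, 552 without the filter on low counts, and 0 with upper-quartile normalization, with the stricter filter and with the replicate block. Leaving out single mice gave 0 to 59, the latter without *Egr1*-/- replicate 1, the mouse with the highest mitochondrial share. For the collagens it was 1 in DESeq2 and without the filter on low counts, *Col14a1* both times, against 0. Dropping single mice left 2 to 6 of the 9 lower at an unadjusted p under 0.05, as were 3.8% to 7.26% of all genes tested. Total counts and the stricter filter each gave 7, beside 7.92% and 6.39% of all genes tested. Keeping genes with low counts gave 5, beside 4.02%. The replicate block gave 7 in place of 6, beside 5.89%, since edgeR's unadjusted p of *Col6a5* fell to 0.042. No collagen of the group passed the adjusted threshold with the block. The samples share only a number, so this block describes no known pairing. With each mouse left out, the difference of the *Col6a1* to *Col6a2* ratio was between -0.032 and 0.082, with -0.032 without *Egr1*+/+ replicate 1 and -0.006 without *Egr1*-/- replicate 2. That of *Col8a1* to *Col8a2* was between -1.217 and 0.486, with 0.423, 0.12 and 0.486 without *Egr1*+/+ replicate 1, *Egr1*-/- replicate 1 and *Egr1*-/- replicate 2. That of *Col6a3* stayed between 0.073 and 0.129. The cause of these changes was not tested. Depth limited *Col8a2*, with 1 to 17 counts, and *Col6a5*, with 26 to 74.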
